A study of Mus musculus with 8 samples.

Results

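The IL-6 family route to STAT3 was followed through 10 genes in whole lungs of CC-LR mice, which develop lung adenocarcinoma driven by mutant K-ras. The genes were chosen by name as the ligands Il6, Osm and Lif, the receptor chains Il6st, Il6ra, Osmr and Lifr, the kinase Jak1, the transcription factor Stat3 and the feedback inhibitor Socs3. All 10 were among the 54532 genes counted, and all 10 passed the filter on low counts, which kept 17138 genes. Poly(A) RNA of 4 control and 4 TTI-101-treated mice, each 14 weeks old, was sequenced as 1 library per animal, the treated mice having received TTI-101, a small-molecule STAT3 inhibitor, for 4 weeks. Both groups carried the same alleles, an LSL-K-ras G12D allele and Cre driven from the club cell secretory protein locus, on a C57BL/6 background, so that mutant K-ras was switched on in airway epithelium while RNA was taken from the whole lung. The study's methods state that both sexes were used and that lungs frozen for RNA came from lavaged and perfused mice. The study's methods describe both intraperitoneal injection in DMSO and oral gavage in a Labrasol and PEG mixture. Which of these the sequenced mice received, and what their controls were given, was not stated in the sources used here.

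IL-6 family cytokines share the signaling chain gp130, encoded by Il6st, which is joined by a ligand-specific chain: the IL-6 receptor for IL-6, the LIF receptor for LIF and the OSM receptor for oncostatin M. Binding activates JAK1 on the receptor tails, and the kinase phosphorylates STAT3, which dimerizes, enters the nucleus and induces target genes. Among these is Socs3, whose product binds gp130 and JAK and shuts the signal off. An inhibitor of STAT3 phosphorylation acts on the protein, and transcript levels do not measure that phosphorylation.

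Total counts ranged from 16075855 to 26873509 per library. Expression is given as CPM, read counts scaled to a common library size with edgeR's TMM factors, with SD over 4 mice. The lung markers Sftpc, Sftpb, Ager, Scgb1a1, Cdh5 and Foxj1 were detected in every library. Xist, a transcript of female cells, was at 400 to 450 CPM in mice 1 and 2 of both groups. In mice 3 and 4 of both groups it was at 0.167 to 2.11 CPM. Control mouse 4 stood apart from the other 7 mice on the first principal component (101 against at most 17.9), and 5.56% of its counts were mitochondrial against 2.01% to 2.85% in the others. At an adjusted p under 0.05 from edgeR's quasi-likelihood test, 0 of the 17138 genes (0%) were called. DESeq2's Wald test called 4, where 31769 genes had an unadjusted p, and limma-voom called 0 of 17138. At an unadjusted p under 0.05, edgeR called 1132 genes (6.61%), 518 with more RNA (3.02%) and 614 with less (3.58%) after TTI-101, where DESeq2 called 1689 and limma-voom 1098. Each library is 1 mouse, and p-values refer to the spread between these animals.

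Within the route, transcripts of the shared chain, the kinase and the transcription factor were abundant and those of the ligands Il6, Osm and Lif were scarce. Other ligands of the route were not all scarce, as Clcf1, described further on, was at 8.62 ± 1.36 CPM per kilobase (SD, n = 8). Il6st was at 29.9 ± 3.51 CPM per kilobase (SD, n = 8), above 90.0% of tested genes. Stat3 was at 26.3 ± 2.86 CPM per kilobase and Jak1 at 26.2 ± 7.50 CPM per kilobase (SD, n = 8). Socs3 followed with 22.7 ± 6.54 CPM per kilobase (SD, n = 8). These 4 levels overlapped across mice, and Jak1 was below Stat3 in 4 of the 8 libraries. The ligand-specific chains were lower, with Lifr at 11.9 ± 2.11 CPM per kilobase, Osmr at 8.11 ± 2.65 and Il6ra at 6.93 ± 1.20 CPM per kilobase (SD, n = 8). Osmr exceeded Il6ra in 4 of 8 libraries, so that pair had no order, whereas Socs3 was above Lifr in all 8 libraries without overlap. Lif was at 2.56 ± 0.868 CPM per kilobase, Osm at 0.891 ± 0.425 and Il6 at 0.218 ± 0.0672 CPM per kilobase (SD, n = 8), the last above only 2.53% of tested genes. Il6ra was above Lif in all 8 libraries without overlap, as was Lif above Osm. Osm was above Il6 in all 8 mice, although their ranges overlapped. Summed per kilobase, the 3 ligands reached 2.96 to 4.74 CPM per kilobase in a library and the 4 receptor chains 49.1 to 68.4 CPM per kilobase.

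**Figure D1:**
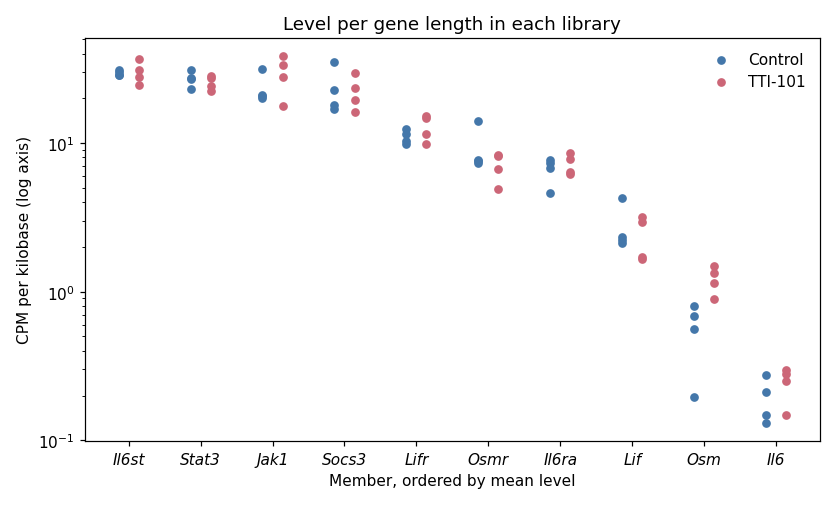
Level of each of the 10 genes in CPM per kilobase of gene length (log axis), with 1 point per library, 4 control and 4 TTI-101-treated. Il6st, Stat3, Jak1 and Socs3 lie together near the top, and Il6 lies lowest at 0.218 CPM per kilobase on average.

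Osm, which encodes oncostatin M, a cytokine made mainly by myeloid cells and T cells, was the member that differed most between groups. Its level was 1.83, 1.55, 1.28 and 0.448 CPM in control mice 1 to 4 and 2.60, 2.04, 3.39 and 3.04 CPM in TTI-101-treated mice 1 to 4. Every treated mouse lay above every control mouse, with the lowest treated value just above the highest control value. The means were 1.28 ± 0.599 CPM in control and 2.77 ± 0.583 CPM in treated lungs (SD, n = 4 each), an estimated log2 change of 1.10 (standard error, SE, 0.41, 95% interval 0.18 to 2.01). The unadjusted p was 0.0232 and the adjusted p 0.657 from edgeR, so Osm did not pass the correction over all genes. The two-sided exact permutation test of log2 CPM gave p = 0.0286, the smallest that 4 against 4 mice allow. That p is unadjusted and follows from the lack of overlap, so it is not separate support. Groups did not overlap for 1 of the 10 members, Osm, and for 2.96% of all tested genes (1.53% with the treated group above and 1.43% with it below). Likewise 1 of the 10 had an unadjusted p under 0.05, against the 6.61% of all tested genes given above. The values rest on few reads, between 7 and 50 counts in control and between 34 and 69 counts in treated libraries. On the log2 scale the change was 0.83 without control mouse 4, which had the lowest level, and it ranged from 0.83 to 1.33 over the 8 fits that each left out 1 mouse. Without TTI-101-treated mouse 3, the unadjusted edgeR p of Osm was 0.0618. In that fit 0 members and 2.42% of all genes were below 0.05. Without TTI-101-treated mouse 2 there were 2 members, Osm and Jak1, beside 14.2% of all genes.

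Marker genes of blood and immune cells were summed beside Osm, since in whole lung more cells of a type cannot be told apart from more RNA per cell. Of the neutrophil markers, 0 of 7 tested passed an unadjusted p of 0.05 and all 7 had positive log2 fold changes (median 0.81), with summed levels of 36.7 to 291 CPM in control and 63.7 to 438 CPM in treated mice. For T cells, 0 of 5 markers passed and all 5 had positive log2 fold changes (median 0.54). Their sums were 14.6 to 58.0 CPM in control and 31.3 to 62.7 CPM in treated mice. All 5 B cell markers had positive log2 fold changes (median 1.28) and passed an unadjusted p of 0.05 from edgeR, beside 6.61% of all tested genes. B cell sums were 82.2 to 220 CPM in control and 202 to 426 CPM in treated mice. Red cell markers passed for 4 of 5 genes, and all 5 had positive log2 fold changes (median 2.50). Red cell sums were 58.0 to 264 CPM in control and 205 to 1586 CPM in treated mice. Monocyte and interstitial macrophage markers had a median log2 fold change of -0.19, with 0 of 7 passing, at 282 to 426 CPM and 276 to 452 CPM. Of the alveolar macrophage markers, 0 of 7 passed and 6 had positive log2 fold changes (median 0.23). Their sums were 361 to 1081 CPM in control and 521 to 736 CPM in treated mice. None of the markers in these lists had 0 counts in any library. The part of these cells in the Osm difference was not tested.

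Il6, which encodes the pathway's founding cytokine, was close to the limit of detection. It had 14, 6, 12 and 5 counts in control mice 1 to 4 and 18, 6, 13 and 10 counts in treated mice 1 to 4. The groups overlapped, at 0.464 ± 0.158 CPM in control and 0.592 ± 0.162 CPM in treated lungs (SD, n = 4 each). On the log2 scale the change was 0.34 (SE 0.43, edgeR adjusted p = 0.818), and its 95% interval of -0.62 to 1.30 covers changes from 0.652-fold to 2.46-fold.

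Lif, which encodes leukemia inhibitory factor, was at 9.72, 9.27, 10.2 and 18.5 CPM in control mice 1 to 4. In treated mice 1 to 4 it was at 7.27, 13.9, 12.8 and 7.42 CPM. Treated mice 1 and 4 were below every control mouse and treated mice 2 and 3 lay within the control range, whose upper end was set by control mouse 4. The means were 11.9 ± 4.39 and 10.4 ± 3.52 CPM (SD, n = 4 each), with an estimated log2 change of -0.20 (SE 0.31, edgeR adjusted p = 0.850). Without control mouse 4 the log2 fold change was 0.10. Osm and Lif are neighbours on chromosome 11 of GRCm38, at 4236420 to 4241026 and 4257557 to 4272514 on the same strand. The 16.5 kb between them hold 0 protein-coding genes in GENCODE M21. The ratio of Lif to Osm per kilobase was 2.77, 3.11, 4.18 and 21.6 in control mice 1 to 4 and 1.27 to 3.56 among treated libraries, so the upper end was set by control mouse 4 alone.

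**Figure D2:**
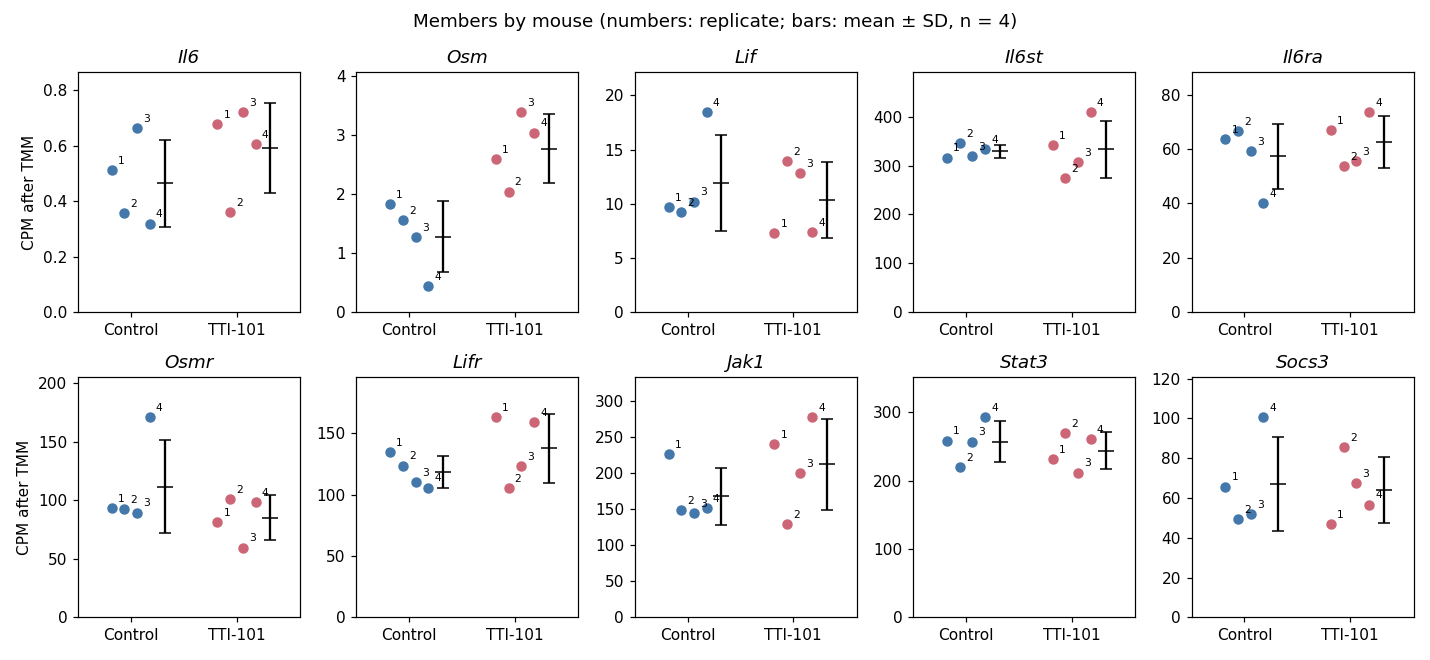
CPM after TMM of the 10 genes in 4 control and 4 TTI-101-treated mice, 1 point per mouse numbered by replicate, with the mean ± SD beside each group. For Osm all treated mice lie above all control mice, and for the other 9 genes the groups overlap.

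Il6st, which encodes gp130, was the steadiest receptor chain in control lungs and had nearly the same mean in both groups. It was at 316, 345, 320 and 335 CPM in control mice 1 to 4 and at 342, 274, 308 and 410 CPM in treated mice 1 to 4. Control mice spanned a narrow range, with a coefficient of variation of 4.06%, and treated mice reached both above and below it, with 17.4%. On the log2 scale the change was 0.02 (SE 0.16, 95% interval -0.33 to 0.36, edgeR adjusted p = 0.979).

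Il6ra, the ligand-binding chain for IL-6, was at 63.7, 66.5, 59.1 and 40.0 CPM in control mice 1 to 4 and at 67.0, 53.6, 55.5 and 73.6 CPM in treated mice 1 to 4. Only control mouse 4 fell well below the rest. On the log2 scale the change was 0.12 (SE 0.18, 95% interval -0.28 to 0.53, edgeR adjusted p = 0.846), and it was -0.0016 without control mouse 4. Il6st exceeded Il6ra per kilobase by 3.87 to 4.33 times in 7 of the 8 libraries and by 6.51 times in control mouse 4, so that apart from this mouse the proportion of shared to specific chain was alike in both groups.

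Osmr, the specific chain for oncostatin M, was at 93.0, 92.2, 89.4 and 171 CPM in control mice 1 to 4 and at 81.1, 101, 59.5 and 98.5 CPM in treated mice 1 to 4. Control mouse 4 was far above the other controls, which lay among the treated mice. The means were 111 ± 39.7 and 85.1 ± 19.2 CPM (SD, n = 4 each), with an estimated log2 change of -0.39 (SE 0.25, 95% interval -0.93 to 0.16, edgeR adjusted p = 0.666). Without control mouse 4 the log2 fold change was -0.09. Control mouse 4, with the lowest Osm, had the highest Osmr.

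Lifr, the chain that binds LIF, was at 135, 124, 110 and 106 CPM in control mice 1 to 4 and at 163, 105, 124 and 159 CPM in treated mice 1 to 4. Treated mice 1 and 4 lay above every control mouse and treated mouse 2 lay just below them all. On the log2 scale the change was 0.22 (SE 0.17, 95% interval -0.16 to 0.59, edgeR adjusted p = 0.707). Lifr and Osmr adjoin each other on chromosome 15, 215.6 kb apart on opposite strands with 0 protein-coding genes between them in GENCODE M21. Lifr exceeded Osmr per kilobase in 7 of 8 libraries, the exception being control mouse 4 with a ratio of 0.697.

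Jak1, the kinase that associates with gp130, varied widely between mice. It was at 226, 149, 144 and 151 CPM in control mice 1 to 4 and at 241, 129, 200 and 277 CPM in treated mice 1 to 4. Control mouse 1 lay among the treated mice, and treated mouse 2 lay below every control mouse. The means were 168 ± 39.1 and 212 ± 63.5 CPM (SD, n = 4 each), with an estimated log2 change of 0.34 (SE 0.24, 95% interval -0.20 to 0.87, edgeR adjusted p = 0.689). Without TTI-101-treated mouse 2 the log2 fold change was 0.53, with an unadjusted edgeR p of 0.0286 and an adjusted p of 0.311, in a fit where 14.2% of all genes had an unadjusted p under 0.05. Without control mouse 1 it was 0.52. The gene overlaps Raver2 on the other strand, and the strand setting of the counting was not given in the sources used here.

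Stat3 (ENSMUSG00000004040, chromosome 11 of GRCm38, 100885098 to 100939540), which encodes the protein that TTI-101 targets, varied least of the 10 members over the 8 mice. It was at 259, 220, 257 and 293 CPM in control mice 1 to 4 and at 232, 270, 212 and 262 CPM in treated mice 1 to 4. The highest level was 1.38 times the lowest over the 8 mice, and only treated mouse 3 fell outside the control range. The 95% interval of the fold change was 0.756 to 1.19, around an estimated log2 change of -0.08 (edgeR adjusted p = 0.886). A halving or a doubling of Stat3 transcript thus lay outside the interval. Stat3 overlaps Stat5a on the other strand, which had at most 731 counts in a library against at least 3672 for Stat3.

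Socs3 (ENSMUSG00000053113, chromosome 11, 117966079 to 117970047 on the minus strand) is the classical feedback target of the pathway, and its promoter is shown because it was the one member promoter that held a STAT-type motif. Promoters were taken from RefSeq on GRCm38.p6, from 250 bases before to 50 bases after each gene start, and searched for TTCNNNGAA, which reads the same on both strands. The table held 10 promoters for 9 of the 10 members, with Osm having none there. Of these, 1 held the motif, against 8.30% of all 32851 promoters and 2 of 23 promoters of the downstream genes described further on. The stricter form TTCCNGGAA was in 0 of the 10, against 1.15% of all promoters and 1 of 23 downstream promoters. The Socs3 window, chr11:117969317-117969616 on the minus strand, has the TTCNNNGAA match in capitals, 154 to 146 bases before the RefSeq start. That start itself lies 681 bases inside the gene as counted.
Socs3 promoter: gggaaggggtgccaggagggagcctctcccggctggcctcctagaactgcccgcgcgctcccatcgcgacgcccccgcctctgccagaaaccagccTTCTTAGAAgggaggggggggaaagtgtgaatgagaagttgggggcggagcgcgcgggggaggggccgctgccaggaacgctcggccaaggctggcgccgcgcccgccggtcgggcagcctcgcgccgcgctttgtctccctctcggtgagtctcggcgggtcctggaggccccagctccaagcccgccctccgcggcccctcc
A match of these letters is a description and not evidence of binding.

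The level of Socs3 did not separate the groups. It was at 65.7, 49.3, 52.0 and 101 CPM in control mice 1 to 4 and at 47.0, 85.6, 67.3 and 56.7 CPM in treated mice 1 to 4. The highest value was in control mouse 4 and the lowest in treated mouse 1, and the other mice of both groups were interleaved. The means were 66.9 ± 23.6 and 64.1 ± 16.5 CPM (SD, n = 4 each), with an estimated log2 change of -0.06 (SE 0.25, edgeR adjusted p = 0.955). The 95% interval covers changes from 0.649-fold to 1.42-fold. The sign of the estimate depended on single mice, with an estimated log2 change of 0.21 without control mouse 4 and 0.06 without TTI-101-treated mouse 1. Per kilobase, Stat3 exceeded Socs3 in 5 of the 8 libraries.

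**Figure D3:**
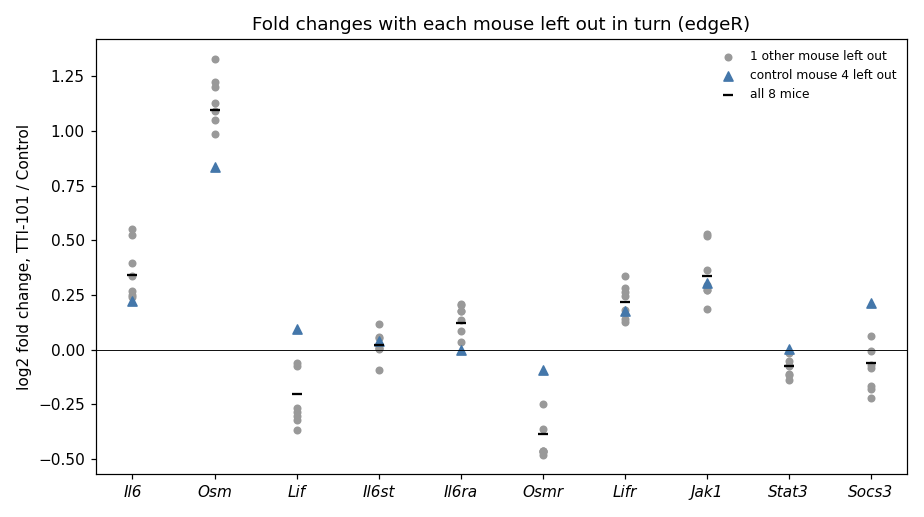
log2 fold change (TTI-101 over control, edgeR) of the 10 genes with all 8 mice (black dash) and with 1 mouse left out in turn (points, with control mouse 4 as a triangle). Osm stays between 0.83 and 1.33, while Lif, Il6ra, Stat3 and Socs3 cross 0 or reach it when control mouse 4 is left out.

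Among the 10 members, control mouse 4 was the highest library for 4 (Lif, Osmr, Stat3 and Socs3) and the lowest for 3 (Il6, Osm and Il6ra). It was thus at an extreme for 7 of 10 members, beside 53.5% of all tested genes. Its summed markers were the highest of the controls for alveolar type 2 cells (68037 CPM against 39014 to 46742 CPM in the other 3) and the lowest for endothelium (930 CPM against 2104 to 2447 CPM). Their part in the member values was not tested. TTI-101-treated mouse 4 was the highest library for Il6st, Il6ra and Jak1, while TTI-101-treated mouse 2 was the lowest for Il6st, Lifr and Jak1. Over all 8 mice, the coefficient of variation ran from 10.9% for Stat3 and 11.8% for Il6st to 32.7% for Osmr, 33.9% for Lif and 47.8% for Osm.

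Of 34 other genes of the route, listed by role, 31 were tested, of which 24 had a positive and 7 a negative log2 fold change, with a median of 0.15 against 0.00 over all tested genes. An unadjusted p under 0.05 was reached by 0 of the 31 in edgeR, against 6.61% of all genes. In DESeq2 it was reached by 1, against 5.32% of all genes. None passed an adjusted p of 0.05. Clcf1, a gp130 ligand that signals through the CNTF receptor, was at 28.5 ± 4.80 CPM in control and 35.5 ± 1.71 CPM in treated lungs (SD, n = 4 each). Its 4 treated values, 33.0 to 36.9 CPM, lay above its 4 control values, 23.3 to 32.6 CPM, with an estimated log2 change of 0.32 (SE 0.15, unadjusted p = 0.0614, edgeR adjusted p = 0.657). Its groups were the only ones of the 31 that did not overlap (3.23%), a share near the 2.96% of all tested genes. The partner STATs Stat5b and Stat5a, which serve other cytokine receptors, had log2 fold changes of 0.31 (SE 0.15) and 0.43 (SE 0.21), each with an adjusted p of 0.657 from edgeR. Without control mouse 1 or TTI-101-treated mouse 2, 7 of the list passed an unadjusted p of 0.05, beside 13.7% and 14.2% of all genes. Without control mouse 2, control mouse 3 or TTI-101-treated mouse 3 there was 1, beside 6.51%, 4.74% and 2.42% of all genes.

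Per kilobase, the most abundant genes by role in that list included Grb2 among adaptors (38.1 ± 5.08 CPM per kilobase, SD, n = 8), Ptpn6 among inhibitors (27.7 ± 9.53), Adam10 among the proteases that shed the IL-6 receptor (21.9 ± 3.55), Il11ra1 among receptors (16.4 ± 2.93), Stat5b among partner STATs (14.7 ± 2.46) and Jak2 among kinases (13.8 ± 2.52). The 3 genes below the filter were Il31, with 0 counts in every library, Cntf, with at most 6 counts, and Il31ra, with at most 8.

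The comparison also covered 24 genes commonly listed as induced through STAT3, since TTI-101 is aimed at that step. Of these 22 were tested, with 9 positive and 13 negative log2 fold changes and a median of -0.13. An unadjusted p under 0.05 was reached by 4 of the 22 (1 higher, 3 lower), against 6.61% of all tested genes, and an adjusted p under 0.05 by 0 in edgeR. Ccnd1, which encodes the G1 cyclin D1, was at 202, 209, 229 and 384 CPM in control mice 1 to 4 and at 152, 151, 146 and 142 CPM in treated mice 1 to 4. All treated mice lay below all controls (two-sided exact permutation test, p = 0.0286), with an estimated log2 change of -0.79 (SE 0.21, unadjusted p = 0.00321, edgeR adjusted p = 0.657). Ccnd1 was the only 1 of the 22 without overlap (4.55%), beside 2.96% of all tested genes, 1.43% with the treated group below. The gene was named by its edgeR p in the same data, so the permutation p is not separate support. The treated mice were tightly grouped, and the log2 fold change was -0.52 without control mouse 4.

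Lcn2, which encodes the acute-phase protein lipocalin 2, was at 464 ± 167 CPM in control and 245 ± 119 CPM in treated lungs (SD, n = 4 each, log2 fold change -0.92, SE 0.35, edgeR adjusted p = 0.657), where every treated mouse but mouse 2 was under the controls. Birc5, which encodes the mitotic protein survivin, was at 7.12 ± 1.30 and 3.93 ± 2.02 CPM (SD, n = 4 each, log2 fold change -0.86, SE 0.34, edgeR adjusted p = 0.657), with every treated mouse but mouse 2 again under the controls. Il4ra, the IL-4 receptor chain, was at 136 ± 18.1 and 174 ± 14.8 CPM (SD, n = 4 each, log2 fold change 0.36, SE 0.14, edgeR adjusted p = 0.657). These genes also respond to other pathways. All tested club and alveolar type 2 markers had negative log2 fold changes beside Lcn2. Summed club markers were 14752 to 37235 CPM in control and 12466 to 23142 CPM in treated mice. Of the club markers, 2 of 4 had an unadjusted p under 0.05 from edgeR, beside 6.61% of all tested genes. For alveolar type 2, 0 of 6 markers passed, with sums of 39014 to 68037 CPM in control and 29137 to 55536 CPM in treated mice. Of the alveolar type 1 markers, 4 of 5 had positive log2 fold changes (median 0.39), with 0 passing. All 5 ciliated markers had negative log2 fold changes (median -0.70), with 2 passing. All 6 endothelial markers had positive log2 fold changes (median 0.58), with 2 passing. None of these markers had 0 counts in any library, and their part in the result was not tested. The count of 4 genes was 1 without TTI-101-treated mouse 3, where 2.42% of all genes had an unadjusted p under 0.05. It was 2 without control mouse 2, control mouse 3 or control mouse 4, beside 6.51%, 4.74% and 3.03% of all genes. It was 8 without control mouse 1 and 11 without TTI-101-treated mouse 2, beside 13.7% and 14.2% of all genes. With no filter on low counts it was 8, beside 5.81% of all genes.

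**Figure D4:**
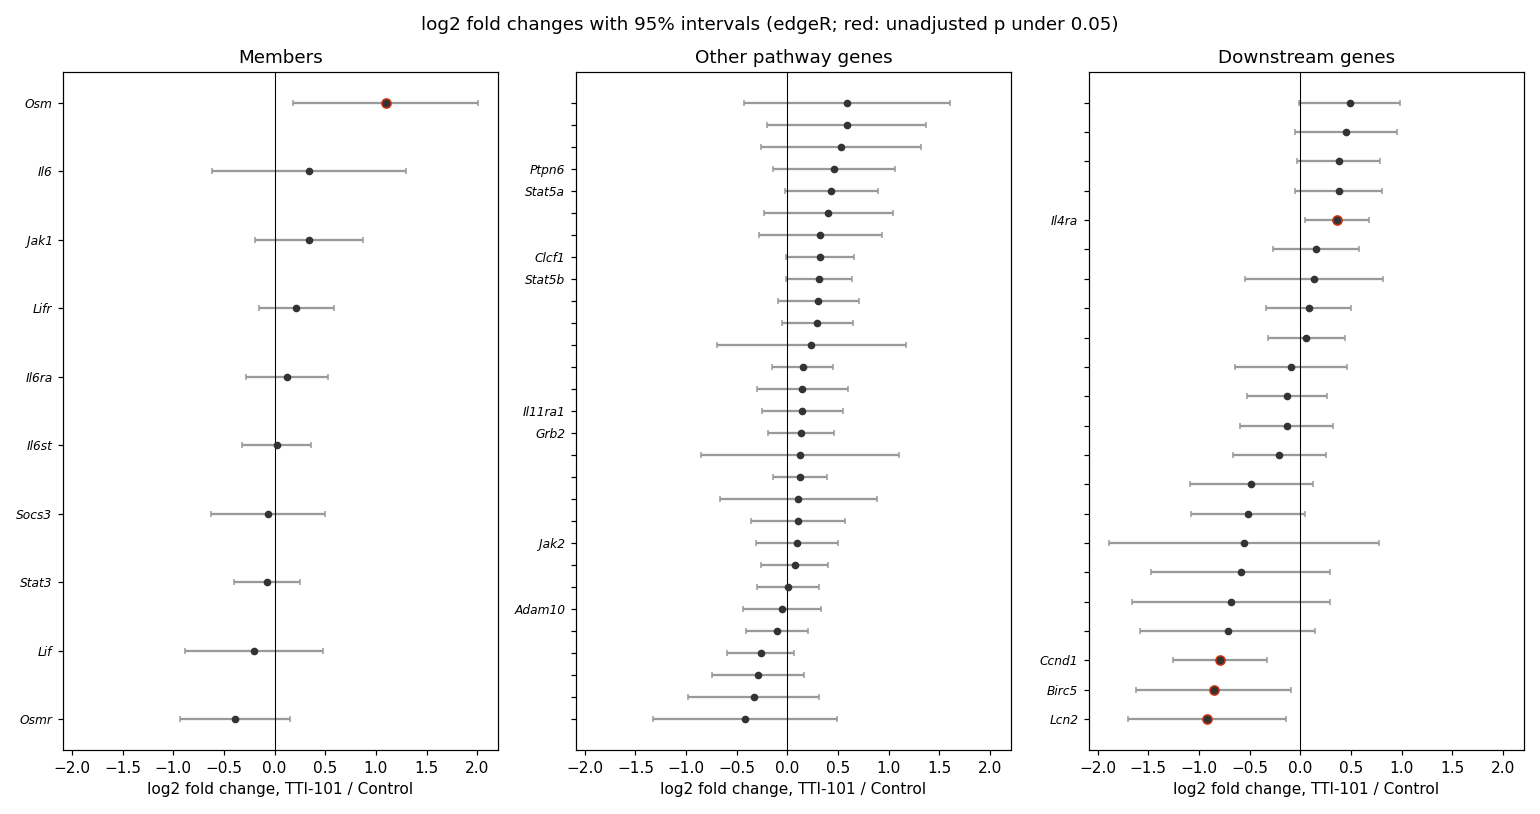
log2 fold changes (TTI-101 over control) with 95% intervals from edgeR for the 10 members, other tested pathway genes and the 22 tested downstream genes, with labels for genes named in the text and red points for an unadjusted p under 0.05. Osm is red among the members, none of the other pathway genes shown is red, and Ccnd1, Lcn2, Birc5 and Il4ra are red among the downstream genes.

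The genes whose profile over the 8 libraries was nearest to that of 3 abundant members were found by the root mean square difference of mean-centred log2 CPM. For Stat3 they were Irgq (0.066), Eif2ak4 (0.068) and Pik3c2b (0.070), where the median of all tested genes outside the members was 0.352. For Il6st they were Tbc1d2b (0.045), Wnk1 (0.050) and Ssh2 (0.055), beside a median of 0.361. For Socs3, which varied more, they were Srebf1 (0.127) and Plcxd1 (0.128), beside a median of 0.480. The choice of genes by likeness fixes that their values resemble those of the member.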

How the data were processed

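The authors deposited 1 table of whole-number read counts per Ensembl gene for 8 mouse lung libraries, made by the sequencing provider after poly(A) selection with a stranded kit and paired-end sequencing. The submitters' processing notes name STAR, DESeq2 and mm10. The counting tool and its strand setting were not given in the sources used here. Gene coordinates of the 10 members match GENCODE M21 (GRCm38), and gene lengths are those listed in the deposited table.

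In R 4.3.3, edgeR 4.0.16 kept genes by filterByExpr (minimum count 10), scaled libraries by TMM and compared the 4 TTI-101 with the 4 control libraries by robust quasi-likelihood F-tests, with Benjamini-Hochberg adjustment over all 17138 genes. Exact permutation tests were two-sided over 70 assignments of log2 CPM (prior count 2). DESeq2 1.42.0, limma-voom (limma 3.58.1), other scalings and filters, a replicate block, Xist as a covariate and leaving out each mouse were the alternatives. The scripts were tested on simulated data. The members, gene lists and rules were chosen with earlier results of these data known. Beyond the members, genes were named if their unadjusted p was under 0.05, otherwise the 4 with the smallest p of a list, with the most abundant per role. The 3 genes nearest in profile to Stat3, Socs3 and Il6st were also named. A few genes that these rules name are not reported here.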

Additional observations from a re-analysis of the deposited data

Results flagged for a closer look

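Groups of 4 mice were searched for a mouse far from the others by Dixon's ratio, its distance to the next mouse over the range of the group, at the 95% critical value, for the 10 members and 8 other genes of the pathway and downstream lists. Of 36 groups, 7 exceeded it, where chance gives about 1 in 20, or 1.8, for independent groups. These groups share the same mice, and the 8 other genes were chosen by their p. Control mouse 4 was at an extreme for 53.5% of all tested genes. The 7 can thus not be read as an excess particular to these genes. Control mouse 4 was the distant mouse for Lif (gap 0.898, at 18.5 CPM against 10.2 CPM in the next control), Osmr (0.956, at 171 against 93.0 CPM) and Ccnd1 (0.850, at 384 against 229 CPM). Control mouse 1 was distant for Jak1 (0.915, at 226 against 151 CPM) and Birc5 (0.877, at 5.17 against 7.59 CPM). TTI-101-treated mouse 2 was distant for Stat5b (0.869, at 70.3 against 95.2 CPM) and Stat5a (0.910, at 21.0 against 26.6 CPM).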

How the results depend on the processing

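Across 16 alternatives to the edgeR fit, 0 members reached an adjusted p under 0.05 in any. The count of members at an unadjusted p under 0.05 was 1 in the edgeR fit and 0 with at least 10 counts required in every library, which removes Osm and Il6. Leaving out 1 mouse gave 0 to 2 members, beside 2.42% to 14.2% of all genes. The sign of the estimate turned for 5 members, in 6 values from 3 of the 8 fits that left out a mouse. Leaving out control mouse 4 gave log2 fold changes of 0.096 for Lif, -0.0016 for Il6ra, 0.0036 for Stat3 and 0.21 for Socs3. Leaving out TTI-101-treated mouse 4 gave -0.094 for Il6st, and leaving out TTI-101-treated mouse 1 gave 0.064 for Socs3. Over the 8 such fits the range was -0.37 to 0.096 for Lif, -0.094 to 0.12 for Il6st, -0.0016 to 0.21 for Il6ra, -0.14 to 0.0036 for Stat3 and -0.22 to 0.21 for Socs3. The other 280 log2 fold changes of the 18 genes followed kept their direction and their side of the adjusted threshold. For other pathway genes at an unadjusted p under 0.05, the count of 0 became 1 with DESeq2, 1 with no filter, 3 with the replicate block and 0 to 7 with a mouse left out. For downstream genes, the count of 4 became 8 with no filter and 1 to 11 with a mouse left out. Of all genes, 5.32% passed with DESeq2, 5.81% with no filter, 7.57% with the replicate block and 2.42% to 14.2% with a mouse left out. Same-numbered mice had correlations of 0.39, 0.08, 0.16 and 0.07 between their deviations from the group means. Of the 4 control mice, 2 correlated best with their own number, so the numbers were not taken to pair the mice. Mice 1 and 2 of both groups had high Xist and mice 3 and 4 low, so the replicate block also holds that difference. With the replicate block, Osm had a log2 fold change of 1.18 (adjusted p = 0.577 from edgeR). In all 4 same-numbered pairs 2 members, Il6 and Osm, differed in 1 direction, for which the smallest exact p is 0.125. For Il6, mouse 2 had 6 counts in both groups, so that pair differed only by library scaling. The share of all tested genes that did so was not counted, so no result is drawn from these 2. For Osm the exact permutation p was 0.0571 without control mouse 4 or any 1 treated mouse. The causes of these changes were not tested. Depth limits Il6 and Osm, at 5 to 18 and 7 to 69 counts per library.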
